A study of Mus musculus with 22 samples.

Results

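The 10 core genes of the circadian clock were examined in maps of open chromatin from mouse hippocampus and frontal cortex. They are the activators Arntl, Clock and Npas2, the repressors Per1, Per2, Per3, Cry1 and Cry2, and the nuclear receptors Nr1d1 and Nr1d2, out of 21887 protein-coding genes of the RefSeq gene table for GRCm38.p6. A peak of open chromatin was counted to a gene where its summit, the position of highest signal, lay in the gene body or within 20 kb of it. By this rule the genes held 239 to 295 peaks per library, out of 243443 to 352369 peaks in the library as a whole. The animals were adult male wild-type C57BL/6J mice, used to model Gulf War Illness, and every animal of every group had the same exposure. For 7 days they drank water with corticosterone (CORT), followed by an injection of diisopropyl fluorophosphate (DFP), which blocks acetylcholinesterase, on day 8 and CORT again at intervals over 5 weeks. LPS, the endotoxin of gram-negative bacteria, was then given as an immune challenge, and tissue was taken 6, 12 or 24 h later from 3 mice per time. The comparison mice had saline in place of LPS and were taken at 6 h, with 2 mice. Hippocampus and frontal cortex came from the same 11 animals, which gave 22 OMNI-ATAC-seq libraries. Unexposed animals were not analysed here. The sources used here do not give the clock time of collection. Time after LPS and time of day therefore cannot be told apart, and at 12 and 24 h neither can be told apart from LPS itself, since saline was taken only at 6 h.

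In the mammalian clock, the proteins of Arntl and Clock, or Npas2 in its place, bind DNA as a pair at E-box motifs and switch on the Per and Cry genes, whose proteins then block the pair. The receptors Nr1d1 and Nr1d2 are also switched on through E-boxes and repress Arntl through another motif, the RRE, at which the ROR receptors activate. The clock runs in most tissues, including neurons and glia of hippocampus and cortex, and Per1 is in addition a direct target of glucocorticoid hormones and of cyclic AMP signalling.

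Promoter sequences were matched by symbol in the RefSeq promoter table for GRCm38.p6, which held 13 start sites for 9 of the 10 genes. Per2 had none and is named only. The 6 promoters below are those in which one of the searched clock motifs was found, and they are shown because the open chromatin peaks described next lay over them. Each runs 5′ to 3′ on the strand of its gene, from 250 bases before the start site to 50 after it, and capitals mark the motifs. Their positions are chr7:113207261-113207560 on the plus strand for Arntl (the downstream of 2 start sites), chr11:69098699-69098998 on the plus strand for Per1 (the upstream of 2), chr4:151044616-151044915 on the minus strand for Per3, chr10:85185005-85185304 on the minus strand for Cry1, chr2:92434020-92434319 on the minus strand for Cry2 and chr11:98775328-98775627 on the minus strand for Nr1d1.
Arntl: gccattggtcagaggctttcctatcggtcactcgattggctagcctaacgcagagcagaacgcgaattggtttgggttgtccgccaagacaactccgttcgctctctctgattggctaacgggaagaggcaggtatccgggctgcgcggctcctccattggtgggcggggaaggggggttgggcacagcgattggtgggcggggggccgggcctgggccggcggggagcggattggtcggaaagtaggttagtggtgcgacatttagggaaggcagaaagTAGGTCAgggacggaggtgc
Per1: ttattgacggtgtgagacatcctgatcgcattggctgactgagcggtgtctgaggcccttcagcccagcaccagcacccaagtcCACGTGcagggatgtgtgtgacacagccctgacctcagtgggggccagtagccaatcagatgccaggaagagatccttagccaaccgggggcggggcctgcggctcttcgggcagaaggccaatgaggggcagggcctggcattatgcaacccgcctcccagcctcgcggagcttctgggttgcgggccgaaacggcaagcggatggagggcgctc
Per3: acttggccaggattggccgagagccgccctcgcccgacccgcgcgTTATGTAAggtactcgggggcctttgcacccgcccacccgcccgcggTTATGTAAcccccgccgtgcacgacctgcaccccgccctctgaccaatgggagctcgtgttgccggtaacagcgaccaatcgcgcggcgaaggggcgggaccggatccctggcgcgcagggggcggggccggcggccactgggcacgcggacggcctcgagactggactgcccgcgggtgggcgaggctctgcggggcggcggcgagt
Cry1: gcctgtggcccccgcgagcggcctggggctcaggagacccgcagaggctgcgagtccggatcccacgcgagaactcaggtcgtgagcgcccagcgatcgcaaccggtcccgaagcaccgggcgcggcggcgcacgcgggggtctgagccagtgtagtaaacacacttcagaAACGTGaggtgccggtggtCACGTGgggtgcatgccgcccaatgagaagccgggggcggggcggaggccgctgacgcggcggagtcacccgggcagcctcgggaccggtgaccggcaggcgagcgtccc
Cry2: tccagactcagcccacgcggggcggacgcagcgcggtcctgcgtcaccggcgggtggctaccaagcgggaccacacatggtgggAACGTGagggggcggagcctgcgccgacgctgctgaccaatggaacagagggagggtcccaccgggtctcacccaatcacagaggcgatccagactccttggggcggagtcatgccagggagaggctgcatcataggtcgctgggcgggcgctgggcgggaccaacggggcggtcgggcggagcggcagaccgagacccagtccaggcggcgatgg
Nr1d1: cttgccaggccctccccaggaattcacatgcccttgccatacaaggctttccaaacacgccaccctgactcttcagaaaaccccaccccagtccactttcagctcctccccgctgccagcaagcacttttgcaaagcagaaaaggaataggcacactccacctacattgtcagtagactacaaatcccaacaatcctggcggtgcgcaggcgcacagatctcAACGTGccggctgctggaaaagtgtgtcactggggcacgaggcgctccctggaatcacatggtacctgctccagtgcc

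The Per1 promoter held an E-box, CACGTG, that began 166 bases before the start. The Cry1 promoter held an E-box 60 bases before the start and, 79 bases before it, the variant CACGTT read on the other strand. The same variant stood on the other strand in the promoters of Cry2, 166 bases before the start, and of Nr1d1, 28 bases before it. The Per3 promoter held TTATGTAA, the D-box bound by the Dbp, Tef, Hlf and Nfil3 factors, at 205 and at 158 bases before the start. The downstream Arntl promoter held the RRE core TAGGTCA 30 bases after the start. No TGGGTCA (the other RRE core), TGACGTCA (the cyclic AMP response element) or AGAACA (the core of a glucocorticoid receptor site) was found in the 13 windows. Both strands were searched, and none of the motifs overlapped another. Of all 32851 promoters of the same length in the table, 7.15% held CACGTG, 4.68% CACGTT, 0.938% TTATGTAA, 2.61% TAGGTCA, 3.98% TGGGTCA, 1.79% TGACGTCA and 19% AGAACA. A match describes the letters and is not evidence of a bound factor.

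All of these motifs lay inside an open chromatin peak in 11 of 11 hippocampus and 11 of 11 frontal cortex libraries. How many promoters of all genes were covered in this way was not counted. The nearest summit lay a median of 21 bp from the Cry1 E-box and 12 bp from the CACGTT of Nr1d1. The median was 57 bp from the Per1 E-box, 70 bp from the Cry2 motif and 58 bp from the inner D-box of Per3. The RRE core of Arntl was farther from a summit, with a median of 171 bp and a range of 142 to 301 bp.

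Starts of the clock genes were open in every library. A peak covered an annotated start site of each of the 9 genes with promoter entries, and the gene end of Per2 at chromosome 1, 91459351, in 22 of 22 libraries. Among the 13 start sites, the most downstream one of Clock (chromosome 5, 76303502) was covered in 0 libraries. The gene bodies of Arntl and Per1 begin upstream of these sites, at 113178471 and 69095108, and those ends were not counted as starts. In windows of fixed length set at summits across all libraries, 454 windows belonged to the 10 genes. Of these, 22 lay within 1 kb of a start site or the Per2 end, and 18 of the 22 (81.8%) had a peak in all libraries, against 94 of the 432 farther away (21.8%). The other 4 windows near starts, at Arntl, Per1 and Per3, had a peak in at most 8 libraries. These shares were not counted at the start sites of all genes, so whether the clock genes differ from others in this was not tested.

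The peaks over the start sites differed in strength among the genes. The authors' fold ratio over background, read as a percentile within each library's own list, describes this without a comparison between libraries. Cry1 had the strongest, at a median percentile of 94.4 in hippocampus (lowest 91.5, highest 95.8) and 92.8 in frontal cortex (91.8 to 95.8). The peak over the upstream Per1 start, the one with the E-box, ranked low in its libraries, at 18.8 in hippocampus (8.8 to 35.6) and 21.2 in frontal cortex (10.5 to 26.6). The downstream Per1 start stood at 55.0 in hippocampus (44.8 to 63.6) and 41.9 in frontal cortex (36.8 to 54.5). Npas2 stood at 58.0 in hippocampus and 62.8 in frontal cortex, and Nr1d1 at 64.2 in hippocampus and 64.1 in frontal cortex, while the medians of the other genes lay between 74.7 (Cry2, frontal cortex) and 91.3 (Per2, hippocampus). The peak was also narrow at Per1, with a median of 354 bp in hippocampus and 357 bp in frontal cortex at the upstream start. At Nr1d2 it was 1607 bp in hippocampus and 1624 bp in frontal cortex, and at Clock 1592 bp in hippocampus and 1619 bp in frontal cortex.

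**Figure D1:**
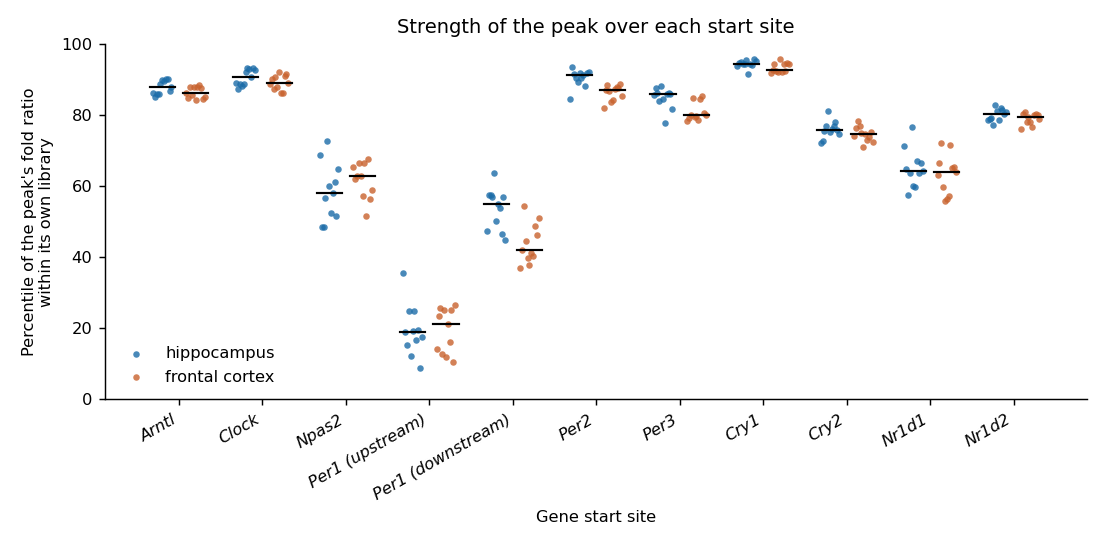
Strength of the peak over each start site (x axis; Per2 by the gene end at which every library had a peak; Per1 by both starts), as the percentile of its fold ratio among all peaks of its own library (y axis). Points are 11 hippocampus libraries (left) and 11 frontal cortex libraries (right) per gene and bars are medians; the upstream Per1 start lies lowest, at 8.8 to 35.6 in hippocampus, and Cry1 highest.

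Per length of sequence, the genes differed in how many peaks they held. Numbers were scaled to the library with the median number of peaks, and are given per 10 kb of gene body and flanks as mean ± SD over 11 libraries per tissue. Nr1d1 was the densest, with 4.96 ± 0.415 in hippocampus and 5.59 ± 0.619 in frontal cortex. Per1 followed with 4.08 ± 0.371 in hippocampus and 4.70 ± 0.369 in frontal cortex, and Cry2 with 3.40 ± 0.270 in hippocampus and 3.68 ± 0.350 in frontal cortex. In hippocampus these 3 did not overlap in mean ± SD with their neighbours in the order. In frontal cortex Nr1d1 overlapped with Per1, and Cry2 with Npas2. Npas2 had 2.62 ± 0.171 in hippocampus and 3.25 ± 0.232 in frontal cortex, Arntl 2.62 ± 0.101 in hippocampus and 3.14 ± 0.210 in frontal cortex, and Per2 2.42 ± 0.201 in hippocampus and 2.52 ± 0.386 in frontal cortex. These 3 overlapped with each other in hippocampus. Lowest were Per3 with 1.76 ± 0.201 in hippocampus and 1.92 ± 0.287 in frontal cortex, Nr1d2 with 1.72 ± 0.267 in hippocampus and 2.15 ± 0.321 in frontal cortex, Clock with 1.51 ± 0.272 in hippocampus and 1.46 ± 0.264 in frontal cortex, and Cry1 with 1.21 ± 0.146 in hippocampus and 1.44 ± 0.144 in frontal cortex. Each of these overlapped with the next in hippocampus. The median over 18088 genes was 1.90 in hippocampus and 1.95 in frontal cortex. The flanks of the short genes hold other genes, such as Thra beside Nr1d1 and Vamp2 beside Per1, so these densities include peaks of neighbours.

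The first comparison asked where the clock genes differed between the tissues. Of the 10 genes, 6 had fewer peaks in hippocampus than in frontal cortex and 0 had more. Npas2 differed with no overlap between libraries once scaled. Unscaled numbers overlapped, at 51 to 66 in hippocampus and 57 to 71 in frontal cortex. The share of all genes with no overlap, or lower in hippocampus in 10 or 11 animals, was not counted. The scaled number of peaks at Npas2 was 49.4, 53.8 and 60.7 in hippocampus (lowest, median and highest of 11) and 61.2, 66.7 and 75.5 in frontal cortex. Hippocampus was lower in 11 of 11 animals. On the log2 scale of the scaled number plus 1 the difference was -0.31 (SE 0.05, limma, adjusted p = 5.8e-05).

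Arntl, the partner of Npas2, had 43.2, 46.5 and 48.7 peaks in hippocampus and 46.6, 55.6 and 60.6 in frontal cortex. Hippocampus was lower in 10 of 11 animals. The libraries overlapped through a single low frontal cortex library, LPS 24 h replicate 4 with 46.6. The log2 difference was -0.26 (SE 0.05, limma, adjusted p = 0.000331). For Clock, in whose place Npas2 can pair with Arntl, hippocampus had 14.7, 19.4 and 25.5 and frontal cortex 14.8, 19 and 25.8. Its log2 difference was 0.06 (95% interval -0.14 to 0.25, limma, adjusted p = 0.663).

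Nr1d2 had 10.1, 13.6 and 15.9 peaks in hippocampus and 13.1, 15.7 and 21 in frontal cortex, a log2 difference of -0.32 (SE 0.08, limma, adjusted p = 0.00518), with hippocampus lower in 10 of 11 animals. Per1 had 19.5, 22 and 25.5 in hippocampus and 23.0, 25.9 and 29.2 in frontal cortex, a difference of -0.20 (SE 0.06, limma, adjusted p = 0.00715). Cry1 had 9.37, 11.4 and 14.6 in hippocampus and 10.4, 14 and 14.8 in frontal cortex, a difference of -0.23 (SE 0.07, limma, adjusted p = 0.00884). For both, hippocampus was lower in 10 of 11 animals, though the libraries overlapped. Nr1d1 had 21, 23.6 and 27.3 in hippocampus and 21, 26.7 and 30.7 in frontal cortex, a difference of -0.16 (SE 0.06, limma, adjusted p = 0.0297). That call was lost with the animal as a block, which left 5 of the 10 genes (limma, adjusted p = 0.0517 for Nr1d1), and in 8 of the 11 fits that left out 1 animal. Further calls depended on which peaks were counted: Cry1 had -0.05 with peaks of a −log10 q of at least 5 (limma, adjusted p = 0.579), and Per1 had -0.03 among the 50000 strongest peaks of each library (limma, adjusted p = 0.919).

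The other genes did not pass with all peaks and 20 kb flanks. The log2 difference was -0.11 for Cry2 (95% interval -0.24 to 0.01, limma, adjusted p = 0.148), -0.11 for Per3 (-0.26 to 0.04, limma, adjusted p = 0.23) and -0.05 for Per2 (-0.22 to 0.12, limma, adjusted p = 0.628). Some passed under other settings, with -0.28 for Cry2 at a −log10 q of at least 5 (limma, adjusted p = 0.00225), -0.23 for Per3 in the gene body alone (limma, adjusted p = 0.0395) and -0.28 for Per2 among the strongest peaks (limma, adjusted p = 0.00724). Among all 18088 genes tested, 15.6% had more peaks in hippocampus and 25.6% fewer. The median log2 difference was -0.18 over the 10 genes and -0.06 over all genes. Hippocampus lists were longer, at 263560 to 352369 peaks against 243443 to 322429 in frontal cortex. Without scaling for this, 3963 genes had more and 1807 fewer peaks in hippocampus, against 2816 with more and 4625 with fewer with scaling. The clock genes called then were 2, Npas2 and Nr1d2, and the median was -0.08 over the 10 genes and 0.04 over all genes. Peak lists carry no read depth, and in bulk tissue a smaller share of cells with an open site and less opening per cell cannot be told apart.

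**Figure D2:**
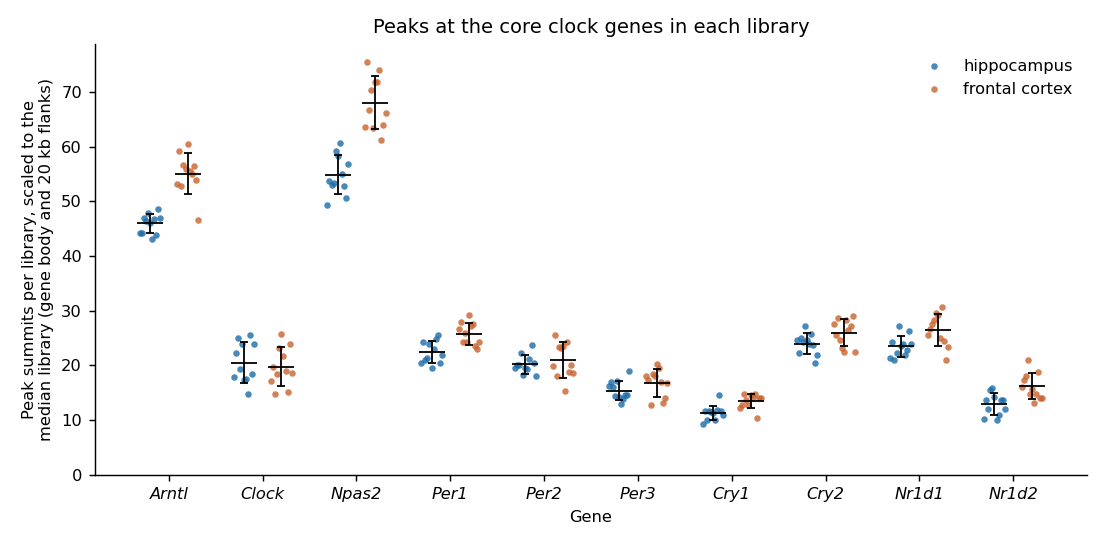
Number of peak summits at each clock gene (x axis) in each library, scaled to the library with the median number of peaks (y axis). Points are 11 hippocampus libraries (left) and 11 frontal cortex libraries (right) per gene, and the black bars are mean ± SD. Only for Npas2 do the 2 tissues not overlap in scaled numbers, and its unscaled numbers did overlap.

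**Figure D3:**
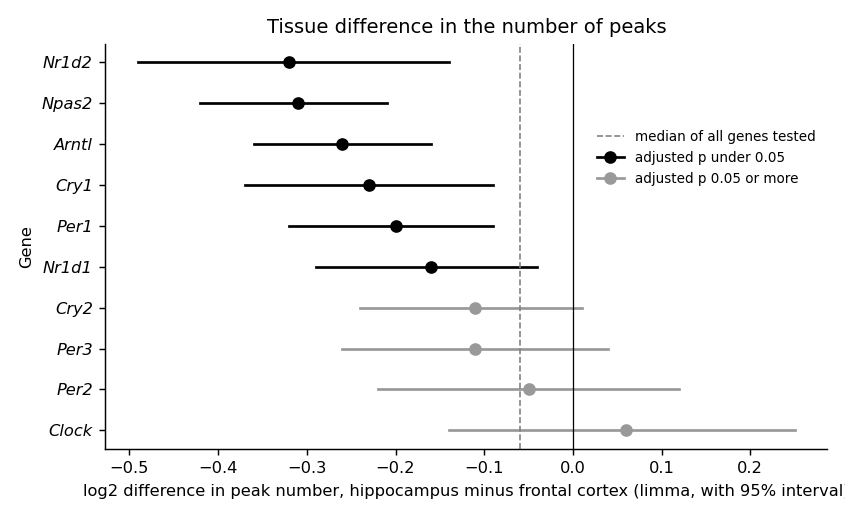
Difference in peak number between hippocampus and frontal cortex for each clock gene (y axis), on the log2 scale of the scaled number plus 1 (x axis), with 95% intervals from limma. Black marks genes with adjusted p under 0.05, and the dashed line the median of all genes, -0.06; 6 genes lie below 0 with their whole interval, from Nr1d2 at -0.32 to Nr1d1 at -0.16.

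Single windows were compared by presence of a peak, which is another measure than the number of summits. The part of single windows in the gene differences was not tested. Of the 454 windows of the clock genes, 112 had a peak in all 22 libraries (24.7%, against 18.4% of all 563375 windows), 94 had one in at most 1 library, and 237 with a peak in 2 to 20 libraries were tested. Of the 237, 20 were called towards hippocampus, where 18.3% of all tested windows were called, and 30 towards frontal cortex, where 12.2% of all tested windows were called (Fisher's exact test, two-sided, Benjamini-Hochberg adjusted over all 327334 tested windows). The clock gene shares were 8.44% towards hippocampus and 12.7% towards frontal cortex. With the animal as a block the clock gene counts were 11 towards hippocampus, where 12.8% of all windows were called, and 17 towards frontal cortex, where 8.14% of all windows were called (exact sign test over animals). No called window lay within 1 kb of a start site, of the clock genes or of another gene, with the centre of the window as its position.

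Among the activators, Arntl had 5 windows towards hippocampus and 9 towards frontal cortex of 62 tested. In the body of Arntl, the windows at chromosome 7, 113182090 to 113182590 and 113277952 to 113278452 had a peak in 0 of 11 hippocampus and 11 of 11 frontal cortex libraries (Fisher's exact test, adjusted p = 4.32e-05 for each). The first of these 2 windows lay upstream of both Arntl start sites with promoter entries. Next to the second of them lay another, 113278485 to 113278985, with a peak in 1 hippocampus and 11 frontal cortex libraries (adjusted p = 0.000297). Shortly before this pair, the window at 113277216 to 113277716 leaned the other way, with a peak in 11 hippocampus and 5 frontal cortex libraries (Fisher's exact test, adjusted p = 0.0406). That call was lost with the animal as a block (exact sign test, adjusted p = 0.0989). Npas2 had 2 windows towards hippocampus and 7 towards frontal cortex of 48 tested. Its clearest, at chromosome 1, 39301943 to 39302443, had a peak in 0 hippocampus and 11 frontal cortex libraries, while that at 39233539 to 39234039 had one in 11 hippocampus and 1 frontal cortex library (Fisher's exact test, adjusted p = 4.32e-05 and 0.000297).

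Clock went the other way among its windows, with 4 towards hippocampus (14.3%) and 1 towards frontal cortex (3.57%) of 28 tested. Over all tested windows these shares were 18.3% and 12.2%, which lean the same way, and Clock lay below both. At chromosome 5, 76239084 to 76239584 and 76275575 to 76276075, both in the body of Clock, 11 of 11 hippocampus and 0 of 11 frontal cortex libraries had a peak (Fisher's exact test, adjusted p = 4.32e-05 for each). A further one at 76268291 to 76268791 had a peak in 9 hippocampus and 0 frontal cortex libraries (adjusted p = 0.00145). The one towards frontal cortex lay in the flank, inside Tmem165. With the animal as a block, 3 windows remained towards hippocampus and 0 towards frontal cortex (exact sign test, adjusted p = 0.0601 for the Tmem165 window). Whether the split of windows differs between Clock and the other activators was not tested.

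Of the Per genes, Per1 had 0 towards hippocampus and 2 towards frontal cortex of 9 tested. One, at chromosome 11, 69102304 to 69102804, lay 2402 bp downstream of the nearer start and had a peak in 0 hippocampus and 10 frontal cortex libraries (Fisher's exact test, adjusted p = 0.000297). The other, centred at -1244 bp from the upstream start, had a peak in 4 hippocampus and 11 frontal cortex libraries (Fisher's exact test, adjusted p = 0.0156), a call lost with the animal as a block (exact sign test, adjusted p = 0.0601). At Per2, the window at chromosome 1, 91456405 to 91456905 had a peak in 11 hippocampus and 1 frontal cortex library (Fisher's exact test, adjusted p = 0.000297), one of 2 towards hippocampus and 1 towards frontal cortex of 10 tested. At Per3, 2 of 25 windows were called in each direction. Of these, chromosome 4, 151030639 to 151031139 had a peak in 10 hippocampus and 0 frontal cortex libraries (adjusted p = 0.000297), and 151005962 to 151006462 in 0 hippocampus and 9 frontal cortex libraries (Fisher's exact test, adjusted p = 0.00145).

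Of the Cry genes, Cry1 had 1 window in each direction of 9 tested, and both were complete. In its body at chromosome 10, 85179147 to 85179647, 5657 bp downstream of the start, 0 hippocampus and 11 frontal cortex libraries had a peak, and in its flank at 85120158 to 85120658, inside Mterf2, 11 hippocampus and 0 frontal cortex libraries (Fisher's exact test, adjusted p = 4.32e-05 for each). Cry2 had 4 windows towards hippocampus and 3 towards frontal cortex of 17 tested. The called window closest to a start site in the whole set was at Cry2, at chromosome 2, 92434955 to 92435455 and centred at -1136 bp from the start, with a peak in 11 hippocampus and 1 frontal cortex library (Fisher's exact test, adjusted p = 0.000297). Farther upstream, at 92445903 to 92446403, 1 hippocampus and 10 frontal cortex libraries had one (adjusted p = 0.00215). Both Nr1d genes had windows towards frontal cortex and 0 towards hippocampus. The share towards frontal cortex was 10% of 20 tested at Nr1d2 and 22.2% of 9 at Nr1d1, against 12.2% of all tested windows. In the body of Nr1d2, chromosome 14, 18221931 to 18222431 had a peak in 0 hippocampus and 11 frontal cortex libraries (Fisher's exact test, adjusted p = 4.32e-05). Nr1d1 had 2, both in bases that it shares with Thra or in Thra alone, which lies on its flank, so they cannot be assigned to Nr1d1.

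**Figure D4:**
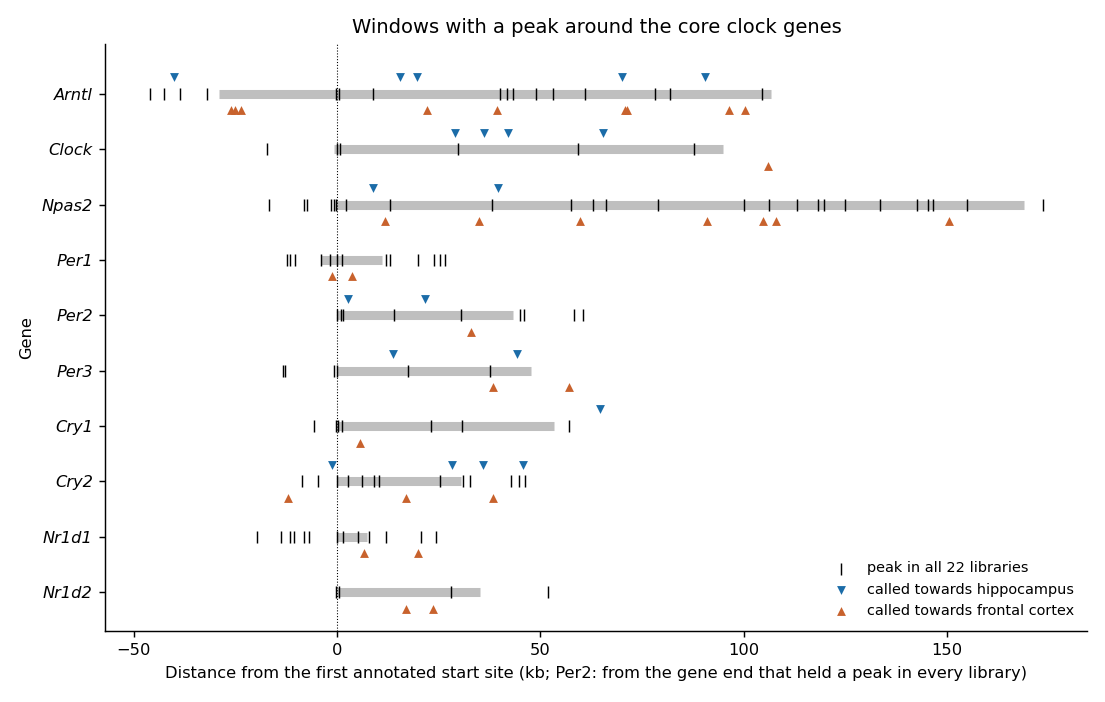
Windows around each clock gene (y axis) by distance in kb from its most upstream start site with a promoter entry, in the direction of transcription (x axis; for Per2 from the gene end at which every library had a peak). Grey bars are gene bodies, black ticks windows with a peak in all 22 libraries, triangles above the bar the 20 windows called towards hippocampus and triangles below it the 30 called towards frontal cortex; no triangle lies within 1 kb of a start site.

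Presence hides differences at sites that have a weak peak everywhere. Among the 50000 strongest peaks of each library, 61 clock gene windows could be tested, and 6 were called towards hippocampus, where 18.3% of all windows were called, and 16 towards frontal cortex, where 18.5% of all windows were called (Fisher's exact test, two-sided). None of the 22 was among the 50 above, since most had some peak in nearly every library. Npas2 held 10 of the 22, with 3 towards hippocampus and 7 towards frontal cortex. The windows named here were chosen after their values were seen. In the body of Npas2, windows at 39307183 to 39307683 and 39318813 to 39319313 had a peak in all 22 libraries, but one among the strongest in 0 of 11 hippocampus and 11 of 11 frontal cortex libraries (Fisher's exact test, adjusted p = 3.04e-05 for each). The same split was found at 3 windows of Arntl, including one 8753 bp downstream of a start, at 113216014 to 113216514, and at a window of Clock, 76216649 to 76217149. At Per2, a window within 1 kb of the open gene end, 91458207 to 91458707, had a strong peak in 1 hippocampus and 8 frontal cortex libraries (Fisher's exact test, adjusted p = 0.0237). The strongest-peak lists thus gave Clock 1 window towards hippocampus and 2 towards frontal cortex, where the full lists gave 4 towards hippocampus and 1 towards frontal cortex. The number of peaks moved as well when only these were counted. For Clock the log2 difference was then -0.46 (limma, adjusted p = 0.000583) and for Nr1d2 0.41 (limma, adjusted p = 0.00328), both opposite in sign to the values over all peaks.

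Other genes of the clock pathway were counted in the same fit. Of 19 (the ROR receptors, the D-box factors, Bhlhe40 and Bhlhe41, kinases, ubiquitin pathway genes and others), 9 had fewer peaks in hippocampus and 0 had more, where 25.6% of all genes had fewer and 15.6% more. Rorb, also a marker of cortical layer neurons and listed as one here, differed most, with a log2 difference of -1.25 (SE 0.06, limma, adjusted p = 5.61e-12). Rora, its relative, and Arntl2, a relative of Arntl, each had -0.46 (limma, adjusted p = 8.12e-07 and 2.44e-05). The repressors Bhlhe40, which competes for E-boxes, and Nfil3, which competes for D-boxes, had -0.44 and -0.36 (limma, adjusted p = 0.000334 and 0.00077). Timeless had -0.26, the kinase gene Csnk1e -0.25, Hlf -0.19 and the deubiquitinase gene Usp2 -0.18 (limma, adjusted p = 0.00227, 0.00504, 0.0182 and 0.0226). Among the tested windows of these 19 genes, 50 (9.75%) were called towards hippocampus and another 87 (17%) towards frontal cortex, against 18.3% and 12.2% of all tested windows in those directions. Rora, which had the most tested windows, held 19 of the first and 43 of the second (23.9% of its 180 tested). Rorb held 1 of the first and 17 of the second (58.6% of its 29 tested). Rora and Rorb together thus held most of the 87 windows towards frontal cortex.

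The tissue labels were set beside the summed scaled peaks of marker genes. The marker lists were chosen with earlier results of these data known, so this is not an independent check. The 6 hippocampal markers had 287 to 379 peaks in hippocampus and 176 to 223 in frontal cortex libraries, and the 6 frontal cortex markers 123 to 147 in hippocampus and 201 to 232 in frontal cortex, with no overlap. None of the markers was at 0 in a group. Striatal markers overlapped, with 72.7 to 86.9 in hippocampus and 81.0 to 113 in frontal cortex. So did those of microglia (83.4 to 97.3 in hippocampus, 82.6 to 96.5 in frontal cortex), astrocytes (109 to 125 in hippocampus, 107 to 122 in frontal cortex), endothelial and mural cells (71.8 to 93.7 in hippocampus, 73.0 to 84.7 in frontal cortex) and blood leukocytes (33.9 to 40.1 in hippocampus, 34.8 to 45.5 in frontal cortex). Oligodendrocyte markers nearly separated, at 83.9 to 99.9 in hippocampus and 99.7 to 120 in frontal cortex. The part of these cell types in the clock gene differences was not tested. The share of windows that 2 libraries had in common, of those present in either, was 0.591 or more within a tissue and 0.541 or less between tissues. Within a tissue the treatment groups stood less apart, with a mean share of 0.635 to 0.726 between a library and its own group and 0.649 to 0.708 with the other groups.

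The second comparison asked whether the clock genes changed with collection time after LPS. No clock gene passed the test in any of the 6 comparisons between times, 3 in each tissue (limma, adjusted p of 0.48 or more), and 0% of all 18088 genes did. At an unadjusted p under 0.05 there were 1, 1 and 0 clock genes in hippocampus for 12 h minus 6 h, 24 h minus 12 h and 24 h minus 6 h, beside 5.85%, 4.04% and 5.68% of all genes. In frontal cortex there were 0, 3 and 1, beside 4.73%, 8.75% and 8.72% of all genes.

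The hippocampal gene in these counts was Clock. Its scaled number of peaks in hippocampus was 20.0 ± 3.03 after saline at 6 h (SD, n = 2), and 22.8 ± 2.97, 16.5 ± 1.59 and 22.7 ± 3.70 at 6, 12 and 24 h after LPS (SD, n = 3 each). All 3 libraries at 12 h (14.7 to 17.5) were below all others of the LPS groups (18.5 to 25.5), while unscaled numbers met at 19, with 25, 20 and 21 peaks at 6 h, 17, 19 and 16 at 12 h and 28, 19 and 24 at 24 h. How many of all genes separate in this way was not counted. In frontal cortex Clock had 18.4 ± 1.88 after saline (SD, n = 2), and 18.9 ± 4.22, 22.2 ± 3.41 and 19.2 ± 4.51 at 6, 12 and 24 h, so the mean at 12 h was the highest there. The log2 difference of 12 h minus 6 h was -0.44 (SE 0.18) in hippocampus and 0.24 in frontal cortex. The interaction, hippocampus minus frontal cortex, was -0.67 (95% interval -1.20 to -0.15) and did not pass (limma, adjusted p = 0.985). No clock gene and 0% of all genes passed in any of the 3 interactions (limma). At an unadjusted p under 0.05 there were 2, 3 and 1 clock genes for 12 h minus 6 h, 24 h minus 12 h and 24 h minus 6 h, beside 4.95%, 6.43% and 5.77% of all genes.

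In frontal cortex the scaled means at 24 h were the lowest of the 4 groups for Nr1d1, Per1 and Per3. The same held for Arntl (52.4), Npas2 (63.8) and Per2 (19.2). The first 3 are described here because their unadjusted p was under 0.05 for 24 h minus 12 h (limma). The 24 h lists of frontal cortex were also among the longest of the tissue, with 300045 to 322429 peaks, against 243443 to 316364 in the other groups. The order of the groups rests on scaling for this. Nr1d1 had 26.2 ± 0.762 peaks after saline at 6 h (SD, n = 2), and 28.5 ± 1.04, 28.3 ± 2.91 and 22.9 ± 1.76 at 6, 12 and 24 h after LPS (SD, n = 3 each), with every 24 h library (21 to 24.5) below every library of the other groups (25.1 to 30.7). Unscaled, its 24 h libraries had 26, 21 and 25 peaks and overlapped with the other groups, which had 23 to 29. How many of all genes separate at 24 h once scaled was not counted. Per1 had 27.2 ± 0.912 after saline (SD, n = 2), and 24.9 ± 0.911, 28.0 ± 1.05 and 23.6 ± 0.6 at 6, 12 and 24 h. Its scaled 24 h libraries lay just below the others (highest 24.2, lowest of the others 24.3), but unscaled they had 25, 23 and 26 peaks, against 23, 21 and 23 at 6 h, so the direction between 24 and 6 h turns with the scaling. Per3 had 17.7 ± 0.437, 16.4 ± 3.20, 18.9 ± 1.75 and 14.7 ± 1.88 in the same order, and its 6 h and 24 h libraries overlapped. The log2 differences of 24 h minus 12 h were -0.29 for Nr1d1, -0.24 for Per1 and -0.35 for Per3 (limma, adjusted p = 0.499, 0.551 and 0.502), so none of them passed. Over all genes the median difference in this comparison was -0.05 and over the 10 clock genes -0.18. In hippocampus the means of Nr1d1 lay between 22.8 and 24.4 over the 4 groups, and those of Per1 between 22.1 and 22.7.

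Single windows rarely went from all libraries of one time to none of another. With 3 libraries against 3 no adjusted test can pass, so these are counts. In hippocampus, 2 of 78 windows switched between 12 and 6 h (4.67% of all windows switched), 0 of 70 between 24 and 12 h (2.69% of all windows), and 1 of 81 between 24 and 6 h (4.16% of all windows). In frontal cortex it was 0 of 60 between 12 and 6 h (2.82% of all windows), 6 of 69 between 24 and 12 h (8.69% of all windows) and 1 of 77 between 24 and 6 h (5.55% of all windows). The shares of the clock genes were below those of all windows in 5 of the 6, and 8.7% against 8.69% between 24 and 12 h in frontal cortex. A window in the body of Npas2, chromosome 1, 39325113 to 39325613, had a peak in hippocampus in 1 of 2 saline libraries, in 0 of 3 LPS libraries at 6 h and in 3 of 3 at both 12 and 24 h. One at -9471 bp from the upstream Per1 start, inside Vamp2 (chromosome 11, 69089228 to 69089728), had a peak in hippocampus in 0 of 2 saline libraries and in 0, 3 and 1 LPS libraries at 6, 12 and 24 h. Leaving out 1 LPS animal in turn gave 16 to 31 switches in place of 10 over the 6 comparisons, since fewer libraries then have to agree.

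In frontal cortex, 4 of the 6 windows that switched between 24 and 12 h were present in all 3 libraries at 24 h. Over all windows 8.13% switched in that direction and 0.56% in the other. The 4 of the clock genes lay in the bodies of Arntl (113251059 to 113251559), Npas2 (39226644 to 39227144), Cry1 (85162842 to 85163342) and Nr1d2 (18233904 to 18234404). Those of Arntl and Nr1d2 had a peak in 0 of 11 hippocampus libraries. All 4 also had a peak in at least 1 frontal cortex library at 6 h after LPS, and that of Cry1 in a saline library too. The 2 that were absent at 24 h belonged to Npas2, at 39222262 to 39222762 and, close to the start of Rpl31, at 39366841 to 39367341. Between 24 and 6 h the Arntl window at 113277216 to 113277716, described above as called towards hippocampus, had a peak in 1 of 2 frontal cortex libraries after saline and in 0, 1 and 3 of 3 at 6, 12 and 24 h after LPS. The hippocampal markers also had more peaks in frontal cortex libraries at 24 h, with 207 to 223 against 176 to 196 in the other frontal cortex groups. All 6 of those markers were detected, and their part in these windows was not tested.

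The third comparison set LPS against saline at the one time they share, 6 h. No clock gene passed in either tissue, and 0% of all genes did (limma, adjusted p of 0.978 or more for the clock genes). At an unadjusted p under 0.05 there were 0 clock genes in either tissue, beside 5.22% of all genes in hippocampus and 5.49% in frontal cortex. The log2 differences, LPS minus saline, ran from -0.06 (Per3) to 0.26 (Nr1d2) in hippocampus and from -0.13 (Per1) to 0.12 (Nr1d1) in frontal cortex. For Per1, the glucocorticoid target, hippocampus had 22.1 ± 1.61 scaled peaks after LPS (SD, n = 3) and 22.4 ± 2.71 after saline (SD, n = 2), and frontal cortex 24.9 ± 0.911 after LPS and 27.2 ± 0.912 after saline.

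Of single windows, 5 of 68 switched in hippocampus (9.93% of all windows switched) and 3 of 52 in frontal cortex (9.29% of all windows). In hippocampus, 3 were gained, with a peak in 3 of 3 LPS libraries and 0 of 2 saline libraries, and 2 were lost. Over all windows 2.53% were gained there and 7.4% lost. The window of Per3 at chromosome 4, 151041436 to 151041936, 2979 bp downstream of the start, and that of Nr1d2 at chromosome 14, 18201359 to 18201859, beyond the far end of the gene, kept a peak in 9 of 9 LPS hippocampus libraries. In frontal cortex the Per3 window had a peak in 11 of 11 libraries, saline included, and the Nr1d2 window in 10. The third gained window, in Npas2 (39281807 to 39282307), had a peak in 3, 2 and 1 LPS libraries at 6, 12 and 24 h. Windows of Arntl (113307633 to 113308133) and upstream of Npas2 (39179720 to 39180220) were lost in hippocampus, with a peak in 0 of 3 LPS libraries at 6 h and 2 of 2 saline libraries, and they had a peak in 3 and 4 of the 6 later LPS libraries. In frontal cortex a window of Nr1d2 was gained (18222552 to 18223052), and another of Nr1d2 (18223942 to 18224442) and the Vamp2 window upstream of Per1 were lost, where 3.35% of all windows were gained and 5.94% lost. The total of 8 over both tissues rests on only 2 saline animals: it was 48 without replicate 2 and 74 without replicate 3, and 17 to 20 without 1 of the LPS animals, since fewer libraries then have to agree.

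**Figure D5:**
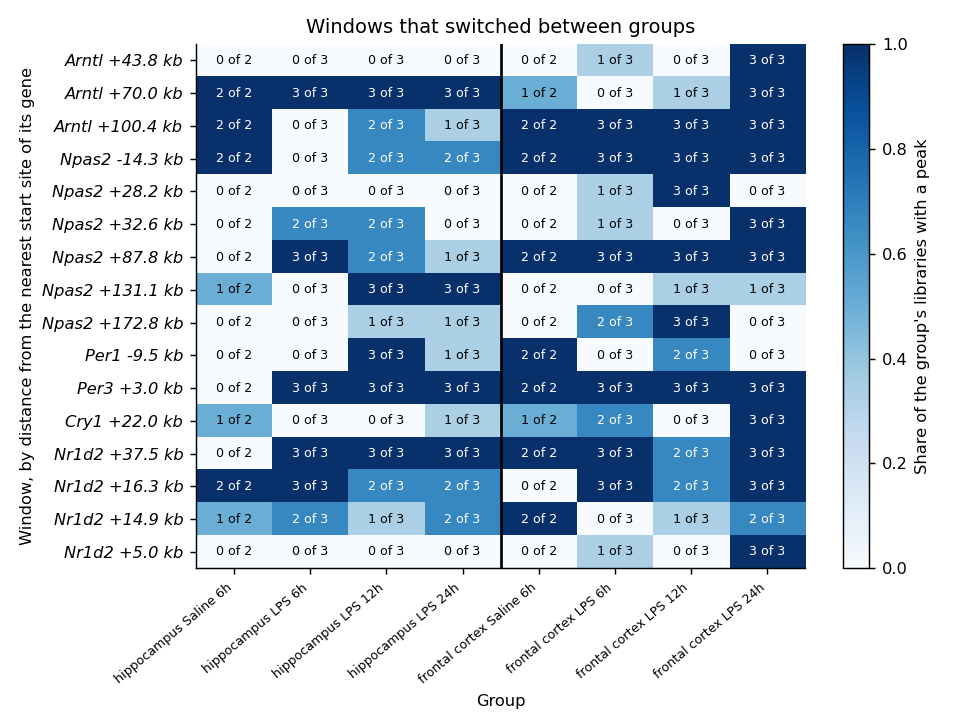
The 16 windows of clock genes (rows, by distance from the nearest start site of the gene, negative upstream) that went from all libraries of one group to none of another, in hippocampus groups (left) and frontal cortex groups (right). Numbers are libraries with a peak of those in the group and the colour their share. The Per3 window at 3.0 kb has no peak in hippocampus after saline and a peak in every other library. In frontal cortex, 5 windows have a peak in all libraries at 24 h and in none at a single earlier LPS time, 12 h or 6 h.

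The authors' own test for differences from saline, made with csaw on reads within each tissue, listed few regions at these genes. In frontal cortex at 24 h the authors' deposited table listed 3 regions, all in introns of clock genes by its labels. They overlapped 5 of 289 clock gene windows (1.73%), where 1.64% of all windows overlapped a listed region. In the authors' deposited table a region of Arntl (chromosome 7, 113278051 to 113278910) was lower after LPS, with an FDR of 0.0432. It covers the pair of windows that had a peak in frontal cortex and almost none in hippocampus, and 2 of 2 saline and 9 of 9 LPS frontal cortex libraries had a peak there. In the authors' deposited table a region of Cry2 (chromosome 2, 92416301 to 92417110), also labelled D930015M05Rik on the other strand, was lower with an FDR of 0.0115. It too overlapped a window called towards frontal cortex (92416816 to 92417316, 0 hippocampus and 8 frontal cortex libraries). Peaks at the Cry2 region itself ran against that direction in frontal cortex, with one in 1 of 2 saline libraries and in 2, 2 and 3 LPS libraries at 6, 12 and 24 h, and in hippocampus in 1 of 2 saline libraries and in 2, 2 and 0 LPS libraries. A region of Npas2 (chromosome 1, 39226901 to 39227010) was higher in the authors' deposited table, with an FDR of 0.0111. In frontal cortex it had a peak in 0 of 2 libraries after saline and in 1, 0 and 3 libraries at 6, 12 and 24 h after LPS, which matches the gain at 24 h above and rests on the same libraries.

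In the authors' deposited tables for the other comparisons, 0 regions lay at a clock gene. The share of all windows that overlapped a listed region was 0.0969% at 6 h and 0.0149% at 12 h in frontal cortex, and 0.00678% at 6 h, 0.855% at 12 h and 0.05% at 24 h in hippocampus. The longest of these lists, in the authors' deposited table for hippocampus at 12 h, had 3084 regions, of which 0 were at a clock gene among 283 windows with a peak in at least 2 hippocampus libraries. All of these comparisons share the same 2 saline animals.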

How the data were processed

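OMNI-ATAC-seq, which cuts open chromatin with a transposase, was made from 20 to 30 mg of frozen tissue and read as 50 bp pairs, per the labels' protocols. The submitters' processing notes name MACS2 2.2.7.1, Bowtie2 2.4.4, Trim Galore 0.6.7, FastQC 0.11.9 and the build GRCm38/mm10. Any shift of read ends for the enzyme is not given in the sources used. The authors deposited one peak list a library, without pooling, with the authors' score, fold ratio over background (the signal column), −log10 p and −log10 q. The score, as a share of its library's total, set the order in which summits were taken as centres of the consensus windows. Fold and p only described, ranked or filtered peaks within a list. The lists are permissive, hold no read depth and differ in length, so a missing peak may also be a shallow library, and intervals for depth cannot be given. The authors' csaw tables hold the FDR as a number read here as 10 times its −log10, with a direction. One baseline animal was left out by the submitters for low depth, per the series' design text.

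Summits were counted per gene (body and 20 kb on each side; RefSeq gene table, GRCm38.p6), scaled to the median library's number of peaks and fitted as log2(number + 1) with limma 3.58.1 (R 4.3.3) over 8 groups for the 18088 genes with a mean of 2 or more peaks. Consensus windows of fixed length, centred on summits, counted as present where a peak overlapped them by 50% of the shorter, and Fisher's exact test (scipy 1.17.1, Python 3.11.15) set hippocampus against frontal cortex for those found in 2 to 20 libraries. P-values were Benjamini-Hochberg adjusted over all genes or windows, at 0.05. Fisher's test of windows and the limma tissue difference were tested on simulated data, the latter with planted differences larger than those of the clock genes. The other tests and contrasts were not simulated. Hippocampus and frontal cortex of the same animal are paired by the labels (correlation of their deviations -0.05 to 0.21). Replicates are separate animals. Named were all 10 genes, up to 3 windows per gene and direction by lowest p, with fewer printed where they add nothing, windows that switched, all regions of the authors' tables at these genes, and called genes of the pathway list. The members, lists and tests were chosen with earlier results of these data known. Alternatives were stricter lists, other overlaps, flanks, scalings, pseudocounts and filters, the animal block and leaving out each animal.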

Additional observations from a re-analysis of the deposited data

How the results depend on the processing

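Over 348 pairs of a result and a setting, 291 kept direction and call (counts within 1.5 times), 25 counts moved further, 18 values lost the call, 5 gained it and 9 changed sign. Calls were lost for Nr1d1 in 13 settings (adjusted p up to 0.862), for Per1 (-0.10), Cry1 (-0.13) and Arntl (-0.15) unscaled, for Per1 among the strongest peaks (-0.03) and for Cry1 at a −log10 q of at least 5 (-0.05). Calls were gained for Per2 (-0.28) and Cry2 (-0.30) among the strongest, for Cry2 at a −log10 q of at least 5 (-0.28), and for Per3 in the gene body (-0.23) and with a 5 kb flank (-0.24). Among the 50000 strongest peaks, the windows called between tissues were 6 towards hippocampus and 16 towards frontal cortex in place of 20 towards hippocampus and 30 towards frontal cortex. With the animal as a replicate block they were 11 towards hippocampus and 17 towards frontal cortex. Leaving out 1 animal gave 14 to 19 towards hippocampus and 25 to 30 towards frontal cortex, with fewer libraries by construction. The genes called between tissues were 2 in place of 6 without scaling, 5 with the animal as a replicate block and 5 to 6 without 1 animal. The difference of Clock turned to -0.02 at a −log10 q of at least 5, to -0.46 among the strongest and to -0.01 without LPS 24 h replicate 1, with a range of -0.01 to 0.13 over the animals left out. That of Per2 turned to 0.03 at a −log10 q of at least 5, 0.05 unscaled, 0.03 in the gene body and 0.01 with a 5 kb flank. That of Cry1 turned to 0.03 and that of Nr1d2 to 0.41 among the strongest. For these 4 genes the cause was not tested. Windows that switched between collection times, 10 in the main setting, were 18 at a −log10 q of at least 5, 5 among the strongest and 10 to 31 without 1 animal. Those between LPS and saline, 8 in the main setting, were 4 at a −log10 q of at least 5, 2 among the strongest, 5 in gene bodies only and 8 to 74 without 1 animal (74 without saline replicate 3, 48 without saline replicate 2, and 17 to 20 without an LPS animal of 6 h). These counts rise by construction, since fewer libraries must agree. At an FDR of 0.01 the authors' deposited tables held 0 regions at these genes. Counts of genes over collection time, LPS and interactions stayed at 0 in all settings run, the replicate block over collection times included. Replicate numbers across collection times did not pair the libraries (correlations of -0.12 to 0.12). No paired analysis was possible for LPS against saline because the groups came from different animals. Presence of a peak depends on depth, which these lists do not hold.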
